A study of Drosophila melanogaster with 39 samples.

Results

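Total small RNAs were compared between piwi null ovaries rescued by Piwi with a synthetic specificity loop (GSS rescue) and piwi null ovaries rescued by Piwi with its own loop (wt rescue). The comparison was defined by the labels and holds 6 of the 39 libraries of the series, 3 for each transgene. Both groups are Drosophila melanogaster ovaries homozygous for piwi>Gal4, an allele in which a Gal4 open reading frame inserted by CRISPR is expressed from the piwi promoter in place of piwi. Both carry a UAS transgene for FLAG-HA tagged Piwi (FH-Piwi), and they differ in the loop of that protein, wt or GSS. The study made its UAS lines by random insertion, so the loop and the insertion site cannot be told apart as the source of a difference. Null ovaries without a transgene, ovaries rescued by Piwi with the loop of Ago3, and heterozygous piwi>Gal4/CyO controls, with 3 libraries each, serve as reference. The labels give no age of the flies, and nothing states that replicates came from separate dissections, so the tests measure the spread between libraries, which may be technical. No gene counts were used, so the tissue could not be checked against marker genes.

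Piwi is the nuclear PIWI protein of the fly ovary, where it silences transposons with piRNAs, small RNAs that guide it to complementary nascent transcripts. It works in germ cells and in the somatic follicle cells, while Aubergine and Ago3 carry piRNAs in the cytoplasm of germ cells. The specificity loop lies in the MID domain, in the pocket that holds the 5′ nucleotide of the guide. Shorter small RNAs in the ovary are microRNAs, mostly bound by Ago1, and siRNAs, bound by Ago2. The paper describes removing reads of annotated microRNAs and of other structural RNAs (rRNA, snRNA, snoRNA, tRNA) before mapping to the genome. The mapping classes add up to the raw reads in each library, so this removal cannot be checked from them. The length profile of a total small RNA library still mixes the remaining classes, and it gives shares of reads and not amounts per cell. In such bulk libraries fewer cells of a type and less RNA per cell cannot be told apart.

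The piwi gene (FBgn0004872) lies on the minus strand of chromosome 2L, at 2L:10982205-10987420 in dm6. The loop sequence is shown first because it is the designed difference between the groups. It was read from the tails of the study's pair of mutagenesis primers, on the coding strand, with the glycine codons in capitals:
GSS loop insert: GGCtcctcgGGCtcctcgGGCtcctcg
The insert has 27 bases and 9 codons, of which 3 encode glycine and 6 serine, in 3 repeats of glycine, serine and serine. The next sequence belongs to the allele that both groups share. It is the forward oligo for the guide RNA that cut piwi, and capitals mark the 19 bases complementary to the second oligo:
piwi guide oligo: cttcGTCACTTAAAACTTCACAA

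The authors' table gives mapped reads of each length from 20 to 30 nt. Raw reads numbered 12570446, 27194879 and 11406096 in wt rescue replicates 1, 2 and 3. GSS rescue had 110971, 9938277 and 16394007 raw reads. GSS replicate 1 stands apart by depth, with 76259 reads of 20–30 nt against 7494510 or more in every other library of the rescued genotypes. Even there, the 95% Clopper-Pearson interval of the 24–29 nt share runs only from 64.3 to 64.9%, so counting error was small beside the differences between libraries (these intervals cover counting error only). GSS replicate 3 stands apart by its reads of 30 nt. The main differences are therefore also given without these libraries, with the libraries of the same number in the other group kept. Replicates of the same number carry the same index (RPI25, RPI26 or RPI27) in every genotype, so same-numbered libraries were treated as a pool. Their length profiles also deviated from the group means together, but replicates 1 and 2 were not clearly told apart by this.

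In wt rescue the profile was a broad peak at 25 or 26 nt, in the size range of piRNAs. The most frequent length of its mean profile, 25 nt, took 24.3, 22.2 and 19.6% of the 20–30 nt reads in replicates 1, 2 and 3. In GSS rescue 25 nt took 26.1, 22.2 and 11.8%. Replicates 1 and 2 of GSS lay within or above the range of wt, and replicate 3 lay below every wt library. GSS replicate 3 had its highest value at 30 nt and, among the lengths below, at 26 nt. A second, lower peak lay at 22 nt in all libraries but wt replicate 2. Reads of 22 nt were 1.18, 0.905 and 1.27 times those of 23 nt in wt rescue and 2.06, 1.45 and 1.25 times in GSS rescue, so the peak was taller in GSS replicates 1 and 2 and alike in pool 3. Across the 11 lengths the SD between the 3 libraries of GSS ranged up to 17.8 percentage points (at 30 nt), against 3.52 in wt (at 24 nt).

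**Figure D1:**
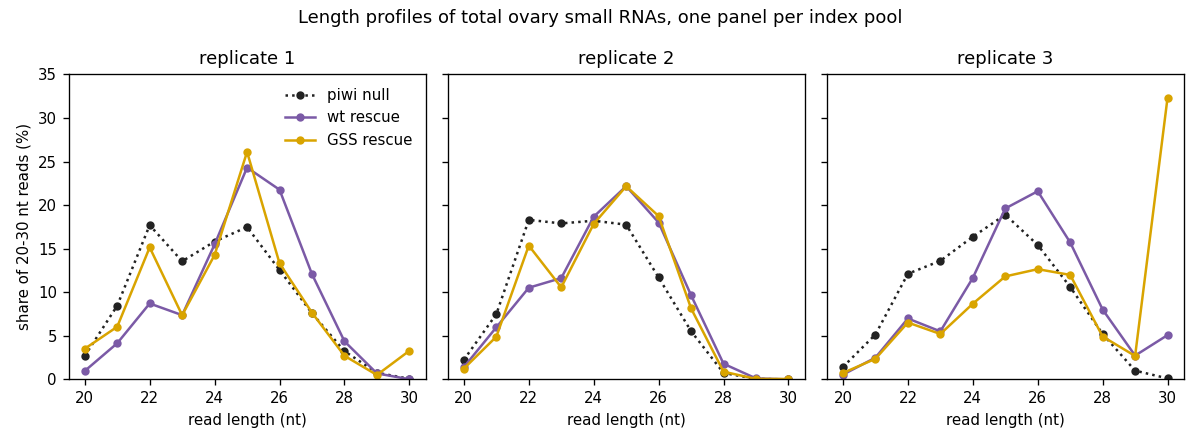
Share of each read length (x axis, nt) among 20–30 nt reads (y axis, percent) in total ovary small RNAs, with 1 panel per replicate number and 1 line per genotype (piwi null dotted). GSS rescue and wt rescue nearly coincide at 25 nt in replicate 2 (both 22.2%), GSS rescue lies higher at 22 nt in replicates 1 and 2 (15.2 and 15.4% against 8.72 and 10.5%), and GSS replicate 3 reaches 32.3% at 30 nt.

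The first question was whether the piRNA-sized reads made up the same part of the library with the altered loop. Reads of 24–29 nt, the window used here for piRNAs, were 78.7, 70.4 and 79.3% of 20–30 nt reads in wt rescue replicates 1, 2 and 3. In GSS rescue they were 64.6, 67.9 and 52.8%. Every GSS library lay below every wt library, with means of 61.8% ± 7.93 (SD, n = 3) and 76.2% ± 4.98 (SD, n = 3). The difference of −14.4 percentage points was tested by exact permutation of the library labels (two-sided). It had an exact permutation p of 0.1, the smallest p that 3 against 3 libraries allow, and an adjusted p of 0.6 over 6 length summaries. It was −15.8 points without GSS replicate 1 and −9.94 points without GSS replicate 3 (exact permutation p = 0.1 and 0.2). Between libraries of the same number the gap was smallest in replicate 2 (67.9 against 70.4%). There the GSS library was neither shallow nor rich in 30 nt reads.

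Leaving out 30 nt reads shrank this difference by over 1.5 times and ended the separation of the groups. As a share of 20–29 nt reads, 24–29 nt took 78.8, 70.4 and 83.6% in wt rescue. The same share was 66.8, 67.9 and 78.0% in GSS rescue. The ranges now overlapped, although GSS was the lower library within each of the 3 pools. The difference of −6.69 points had an exact permutation p of 0.2.

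**Figure D2:**
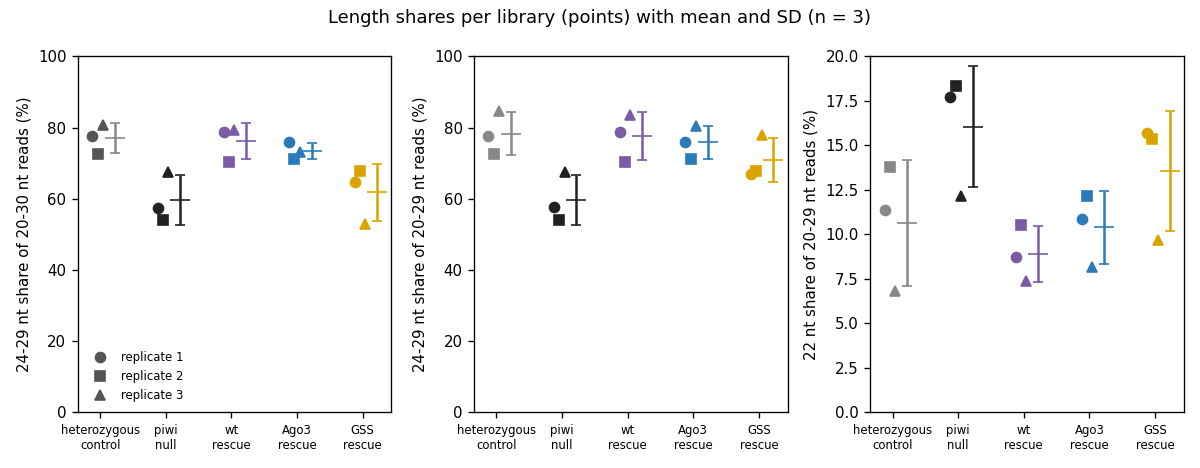
Shares per library (points, shape by replicate number) for the 5 total RNA genotypes, with the mean and SD (n = 3) beside them: 24–29 nt of 20–30 nt reads (left), 24–29 nt of 20–29 nt reads (middle) and 22 nt of 20–29 nt reads (right), all in percent. GSS rescue falls below wt rescue without overlap on the left (52.8 to 67.9% against 70.4 to 79.3%) and overlaps it in the middle and on the right. The lengths counted in the controls cover only 3.72 to 45.8% of their mapped reads.

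The rest of the 20–30 nt reads were shorter reads, which include the length of siRNAs, and reads of 30 nt. Reads of 20–23 nt were 21.2, 29.6 and 15.6% of 20–30 nt reads in wt rescue and 32.1, 32.1 and 14.9% in GSS rescue. The groups overlapped, and GSS was higher in pools 1 and 2 and lower in pool 3. The mean difference of 4.23 points had an exact permutation p of 0.6 (adjusted p = 0.9). It was smaller than the mean difference at 30 nt, 10.2 points. For 20–23 nt it was 1.35 points without GSS replicate 1. Without GSS replicate 3 it was 9.97 points, with wt replicate 3, the lowest wt library, kept.

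The length of 21 nt is that of siRNAs, which Dicer-2 makes from double-stranded RNA. It took 4.16, 5.98 and 2.503% of 20–30 nt reads in wt rescue. In GSS rescue it took 6.05, 4.91 and 2.37%. The groups overlapped almost fully. The difference of 0.228 points (exact permutation p = 0.9, adjusted p = 0.9) changed sign without GSS replicate 1, GSS replicate 2 or wt replicate 3, with a lowest value of −0.628 points.

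The neighbouring length of 22 nt, which was singled out after its values had been seen, showed more of a difference. It took 8.72, 10.5 and 6.995% of 20–30 nt reads in wt rescue. In GSS rescue it took 15.2, 15.4 and 6.53%. GSS was thus higher in pools 1 and 2, and the groups overlapped because of pool 3. The difference of 3.60 points had an exact permutation p of 0.4, and was 6.51 points without GSS replicate 3 (p = 0.1) and 2.20 points without GSS replicate 1 (p = 0.7). Among 20–29 nt reads, 22 nt took 8.72, 10.5 and 7.37% in wt rescue and 15.7, 15.4 and 9.66% in GSS rescue. On that scale GSS was higher in every pool, by ratios of 1.80, 1.46 and 1.31, but GSS replicate 3 stayed below wt replicate 2. A higher 22 nt share than in wt rescue was not particular to GSS. It was 10.9, 12.2 and 8.16% in Ago3 rescue and 17.7, 18.3 and 12.1% in null ovaries, above wt in each pool. In the controls it was 11.4, 13.8 and 6.79%, above wt in pools 1 and 2 only. The lengths counted in the controls covered only 38.5, 3.72 and 45.8% of their mapped reads.

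The 30 nt reads set GSS replicate 3 apart. They numbered 2744, 2266 and 483898 in wt rescue, or 0.0261, 0.00977 and 5.09% of 20–30 nt reads. In GSS rescue they numbered 2511, 4778 and 4702705, or 3.29, 0.0567 and 32.3%. GSS was higher in each of the 3 pools, by ratios of 126, 5.81 and 6.35, yet wt replicate 3 lay above GSS replicates 1 and 2. The excess at 30 nt was shared within the third pool, but not by null ovaries. Replicate 3 of Ago3 rescue had 9.26% and that of the controls 4.62%, while that of null ovaries had 0.119%. The lengths counted in replicate 3 of the controls covered only 45.8% of its mapped reads. In replicates 1 and 2 of these 3 genotypes 30 nt took at most 0.0747%. The ratio of 30 nt to 29 nt reads was 0.0376, 0.0801 and 1.86 in wt rescue and 6.41, 0.896 and 11.99 in GSS rescue. GSS replicate 1, outside the third pool, thus also had more reads of 30 than of 29 nt. The mean difference between the groups, 10.2 points (exact permutation p = 0.5, adjusted p = 0.9), was −0.0344 points without GSS replicate 3. That value still includes wt replicate 3. Within pools 1 and 2 GSS was higher by 3.27 and 0.0470 points. The part of the index pool in this pattern was not tested.

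The mean read length moved with the 30 nt reads. It was 24.8, 24.4 and 25.6 nt in wt rescue and 24.4, 24.3 and 26.7 nt in GSS rescue, a difference of 0.195 nt (exact permutation p = 0.9). Without 30 nt reads the means were 24.8, 24.4 and 25.3 nt in wt rescue and 24.2, 24.3 and 25.2 nt in GSS rescue. The difference then had the opposite sign, −0.313 nt (exact permutation p = 0.5), and GSS was the shorter library in each pool. The summed absolute difference between the mean profiles was 29.7 points (exact permutation p = 0.5, adjusted p = 0.9) and 14.0 points without 30 nt reads (p = 0.6).

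All 11 lengths were then fitted together with edgeR's quasi-likelihood test on the counts of the 12 libraries in the null background, with the 20–30 nt reads as library size. None of the 11 lengths passed an adjusted p of 0.05 (0% called). An unadjusted p under 0.05 was reached by 1 length, 26 nt, with a log2 fold change of −0.46 (SE 0.179, adjusted p = 0.305). DESeq2 and limma on log2 shares also called 0 lengths, with 2 and 1 at an unadjusted p under 0.05. The fitted log2 fold changes of GSS over wt were 0.90 at 20 nt, 0.08 at 21 nt and 0.50 at 22 nt. The value at 20 nt rested on the shallow library, since it was 0.019 without GSS replicate 1. They lay between −0.46 and −0.08 from 23 to 27 nt. They were −0.73 at 28 nt, −0.12 at 29 nt and 2.80 at 30 nt, the last with an SE of 2.71. Shares of a whole are not independent of each other, so a high share of 30 nt lowers the others in the same library.

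The length 26 nt, which lies at the wt peak, took 21.8, 18.0 and 21.6% of 20–30 nt reads in wt rescue. In GSS rescue it took 13.3, 18.7 and 12.7%. GSS replicates 1 and 3 lay below every wt library and GSS replicate 2 lay among them. Leaving out single GSS libraries gave −0.38 without replicate 1 (adjusted p = 0.777), −0.66 without replicate 2, the library that lay among wt (adjusted p = 0.0274, past the threshold), and −0.35 without replicate 3 (adjusted p = 0.295). The fold change also shrank by over 1.5 times under other scalings, to −0.28 with TMM factors, −0.17 with DESeq2 and −0.29 without 30 nt reads.

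Because same-numbered libraries share an index, the index pool was added to the edgeR fit as a block. Then 1 of the 11 lengths passed (9.09% called). This was 28 nt, at the long side of the piRNA range, with a log2 fold change of −0.81 (SE 0.187, adjusted p = 0.0249). It took 4.38, 1.80 and 8.02% of 20–30 nt reads in wt rescue and 2.72, 0.892 and 4.93% in GSS rescue. GSS was lower in all 3 pools, although the groups overlapped. With the block and without 30 nt reads, 2 of 10 lengths passed (20% called): 22 nt was higher in GSS rescue, with a log2 fold change of 0.59 (SE 0.131, adjusted p = 0.000297), and 28 nt was lower, at −0.62 (SE 0.227, adjusted p = 0.0394). These lengths were named after their values had been seen. The fit that combined the block with leaving out 30 nt reads was not planned. The fit covers few lengths, which share a total, so its p-values are approximate.

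The blocked calls did not all hold when the first or the third pool was left out, which also leaves fewer libraries. The second pool was not left out. Without the first pool, which holds the shallow GSS library, 0 lengths passed with the block, with 1 at an unadjusted p under 0.05. Under that setting 22 nt was at 0.24 (adjusted p = 0.573) and 28 nt at −0.87 (adjusted p = 0.311). Leaving out 30 nt reads as well, 0 lengths passed and 22 nt was at 0.47 (adjusted p = 0.0608). Without the third pool, which holds the 30 nt excess, 22 nt passed with the block, at 0.67 (adjusted p = 0.00408), and without it, at 0.67 (adjusted p = 0.0197), while 28 nt did not pass (adjusted p = 0.0708 with the block). Thus 22 and 28 nt kept their signs in these fits but not their calls.

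**Figure D3:**
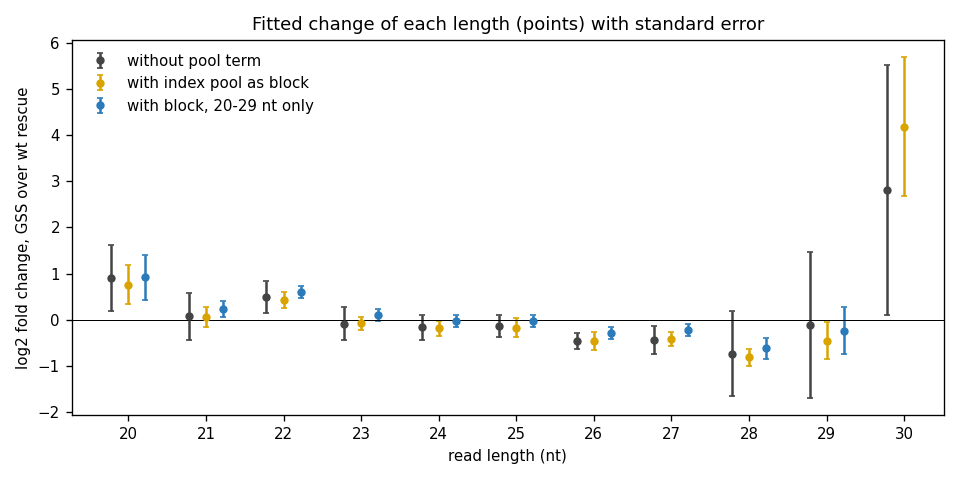
Fitted log2 fold change of GSS over wt rescue (y axis) for each read length (x axis, nt) in edgeR without a pool term, with the index pool as block, and with the block on 20–29 nt reads, with standard errors as bars. The values at 22 nt lie above 0 (0.50, 0.43 and 0.59) and those at 28 nt below 0 (−0.73, −0.81 and −0.62) in all 3 fits, and the bars at 30 nt are the widest.

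Without reference to a fit, GSS was the higher library in all 3 pools at 1 of 11 lengths (9.09%, 30 nt) and the lower at 5 (45.5%), which were 23, 24, 27, 28 and 29 nt. Among 20–29 nt reads it was higher in all pools at 1 of 10 lengths (10%, 22 nt) and lower at 1 (10%, 28 nt). The groups did not separate at any single length on either scale (0% of lengths).

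The distance between whole profiles, the sum of absolute differences in share over 20–29 nt, placed the loop difference beside the spread. GSS and wt rescue of the same pool lay 29.3, 11.2 and 16.8 points apart in pools 1, 2 and 3. Ago3 and wt rescue of the same pool lay 10.9, 9.14 and 12.5 points apart, closer than GSS and wt rescue in every pool. Between different pools, wt libraries lay 23 to 42.1 points from each other (median 23.4) and GSS libraries lay 26.4 to 51.2 points from wt libraries (median 32.0). These ranges overlapped, and the distances share libraries, so no test was made. GSS rescue and null ovaries of the same pool lay 23.9 to 30.8 points apart. With 30 nt reads included, GSS and wt rescue of the same pool lay 11.2 to 54.9 points apart.

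Null ovaries, which lack Piwi, gave a reference for the loss of piRNA-sized reads. The paper reports that the GSS transgene, like the wt one, restored fertility and ovary morphology. The tissue may therefore also differ between null and rescued ovaries. In null ovaries the 24–29 nt share of 20–30 nt reads was 57.5, 54.0 and 67.6%. GSS rescue differed from them by 2.06 points (two-sided exact permutation p = 0.9, adjusted p = 0.9 over 2 comparisons), and the groups overlapped. Without 30 nt reads GSS rescue lay 11.2 points above null ovaries (exact permutation p = 0.2) and was the higher library in each pool (66.8, 67.9 and 78.0% against 57.5, 54.0 and 67.6%). In Ago3 rescue the 24–29 nt share was 75.8, 71.3 and 73.0%, above every GSS library. That difference of −11.6 points (GSS minus Ago3) had an exact permutation p of 0.1 (adjusted p = 0.2). It was −13.0 points without GSS replicate 1, shrank to −7.13 points without GSS replicate 3 (exact permutation p = 0.1 for each), and to −4.95 points without 30 nt reads (p = 0.3). These comparisons share the GSS libraries. The heterozygous controls had 77.7, 72.5 and 80.8%, but their length table covered only 3.72 to 45.8% of the mapped reads, so no test was made against them.

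Immunoprecipitated FH-Piwi from rescued ovaries, with 1 library per loop and hence no test, peaked at 27 nt with either loop. Reads of 24–29 nt were 92.4% of 20–30 nt reads with the wt loop and 91.3% with the GSS loop, and those of 22 nt were 1.22 and 1.09%.

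The second question was how the reads mapped to the genome, since piRNAs from transposons often match many sites. Uniquely mapped reads were 28.7, 30.2 and 27.1% of raw reads in wt rescue. In GSS rescue they were 26.5, 30.7 and 18.0%. The 4 mapping classes add up to the raw reads, so the table has no class for reads of structural RNAs. GSS replicate 2 lay above every wt library and the other GSS libraries below. The difference of −3.58 points (exact permutation p = 0.5, adjusted p = 1 over 6 mapping shares) was −0.0558 points without GSS replicate 3.

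Reads with several sites, up to 100 (M ≤ 100), were 61.7, 61.1 and 63.2% of raw reads in wt rescue and 54.1, 60.4 and 75.5% in GSS rescue. The wt libraries lay within the range of GSS. The difference of 1.33 points (exact permutation p = 1) became −4.74 points without GSS replicate 3, the library with 32.3% of its reads at 30 nt. Whether these 30 nt reads were the multimapping ones was not tested, since the tables do not cross length with mapping class. As a share of mapped reads, unique reads were 31.7, 33.1 and 30.0% in wt rescue and 32.9, 33.7 and 19.3% in GSS rescue. In pools 1 and 2 GSS was slightly higher and in pool 3 lower (mean difference −2.99 points, exact permutation p = 0.9, and 1.68 points without GSS replicate 3).

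Reads without a site were 9.55, 8.72 and 9.64% of raw reads in wt rescue. In GSS rescue they were 19.3, 8.88 and 6.50%. The highest value belonged to the shallow replicate 1 and the lowest to replicate 3. The difference of 2.26 points (exact permutation p = 0.9) was −1.61 points without GSS replicate 1. Reads with more than 100 sites were 0.0660, 0.0647 and 0.0613% of raw reads in wt rescue and 0.0631, 0.0565 and 0.0422% in GSS rescue. GSS was lower in each pool, with overlap between the groups, but its value in pool 1 rested on only 70 reads. The difference of −0.0100 points had an exact permutation p of 0.2 (adjusted p = 1). It was −0.0146 points without GSS replicate 1 (exact permutation p = 0.1) and −0.00418 points without GSS replicate 3 (p = 0.3). Of the mapped reads, 92.4, 93.5 and 92.3% were 20–30 nt long in wt rescue and 85.2, 93.0 and 94.9% in GSS rescue (difference −1.68 points, exact permutation p = 0.9, and 1.23 points without GSS replicate 1).

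**Figure D4:**
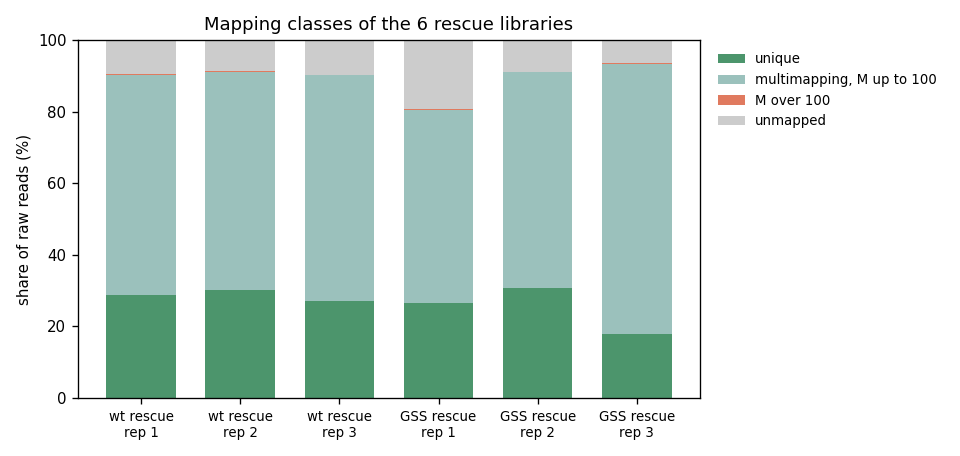
Stacked shares of raw reads (y axis, percent) by mapping class in the 3 wt rescue and 3 GSS rescue libraries. The wt libraries resemble each other (27.1 to 30.2% unique), while GSS replicate 1 has the most unmapped reads (19.3%) and GSS replicate 3 the fewest unique (18.0%) and the most multimapping reads (75.5%).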

How the data were processed

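The authors trimmed adapters with cutadapt 1.16, removed structural RNAs and mapped reads to dm6 with STAR 2.5.4a. They deposited counts of mapped reads per length and counts and fractions of reads per mapping class. Per the labels, RNA for total libraries was size selected before ligation, and the study's methods describe size selection after ligation. Shares were computed per library from the counts in Python 3.11.15 (numpy 2.4.6, pandas 2.3.3, scipy 1.17.1, matplotlib 3.10.9) and compared by two-sided exact permutation of the library labels (20 splits). Length counts were fitted with edgeR 4.0.16 (quasi-likelihood, Benjamini-Hochberg, threshold 0.05) in R 4.3.3, and alternatively with DESeq2 1.42.0 and limma 3.58.1 (0.01 percentage points added before the log2). The edgeR fit without a block and the permutation test were checked on simulated data. The simulated counts had no pool effect and the same spread at every length, smaller than the spread fitted without a block. The edgeR fits with a block were not checked in this way. Same-numbered libraries share an index in the labels, and the deviations of their length profiles from the group means correlated at 0.727, 0.479 and 0.721 between GSS and wt rescue, so the numbers were taken to pair them. Of the differently numbered pairs, replicates 1 and 2 also correlated (0.640 and 0.402), and those with replicate 3 did so negatively. Deviations within a group cancel out, so these correlations are not independent of each other. On this scale they set apart replicate 3 alone. Among 20–29 nt reads the same-numbered pairs correlated at 0.513, 0.722 and 0.888, each above the differently numbered pairs.

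Groups, lengths and tests were chosen with earlier results of these data known. Values per library were to be given for 21 nt, the most frequent wt length, 30 nt and any length past the threshold, and 22, 26 and 28 nt were added after values had been seen. Alternatives covered normalization, filtering, the block, 30 nt reads, each replicate and index pools 25 and 27, the last chosen after seeing the data. Combining the block with leaving out 30 nt reads was not planned either.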

Additional observations from a re-analysis of the deposited data

How the results depend on the processing

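The 24–29 nt, 20–23 nt and 22 nt shares, the unique and M > 100 shares and the comparison with Ago3 rescue kept their direction under every alternative run, none passing the threshold, which 3 libraries against 3 cannot reach. Permuting within pools (replicate block), where the smallest p is 0.25, gave −14.4 points at an exact permutation p = 0.25 for the 24–29 nt share. The number of lengths called was 0 in the fit without a block, 1 with the replicate block, 1 without index pool 27, 2 with the block and without 30 nt reads, 1 with the block and without pool 27, and 1 with the block and without both 30 nt reads and pool 27. It ranged from 0 to 1 when each library was left out. Of the alternative values of single lengths, 193 kept their direction and side of the threshold, 27 changed sign and 7 passed it.

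Mean length reversed to −0.313 nt without 30 nt reads. The log2 fold changes of 23 and 29 nt reversed with TMM factors (0.057 and 0.37), with DESeq2 (0.17 and 0.51) and without 30 nt reads (0.062 and 0.31), and those of 24 and 25 nt with DESeq2 (0.071 and 0.086). With the replicate block and without 30 nt reads 23 nt was at 0.10, and at 0.13 when pool 25 was also left out. Without pool 25, 21 nt was at −0.22, and at −0.19 with the block. Without pool 27, 25 nt was at 0.055, at 0.053 with the block and at 0.079 with the block and without 30 nt reads.

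Leaving out each library gave ranges of −0.628 to 1.26 points for 21 nt, −0.0344 to 16.1 for 30 nt, −0.601 to 0.622 nt for mean length, −4.74 to 5.94 points for multimapping reads, −1.61 to 4.80 for unmapped reads, −5.52 to 1.68 for unique of mapped reads, −3.60 to 1.23 for 20–30 nt of mapped reads and −0.992 to 6.55 for the comparison with null ovaries. The log2 fold changes ranged from 0.019 to 1.28 (20 nt), −0.21 to 0.42 (21 nt), −0.38 to 0.26 (23 nt), −0.41 to 0.073 (24 nt), −0.37 to 0.13 (25 nt), −2.04 to 1.42 (29 nt) and −0.030 to 9.37 (30 nt). The causes were not tested. Log2 odds of mean length and of the profile difference, and shares without 30 nt for 30 nt itself, have no value.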
